A study of Homo sapiens with 15 samples.

Results

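ATF4 and 7 basic leucine zipper (bZIP) genes whose products can pair with it or share its targets were followed here: ATF3, ATF5, DDIT3, CEBPB, CEBPG, CEBPD and JDP2. The 8 genes were chosen by symbol, with earlier results of these data known. All 8 were found among the 60670 genes of the count table. They passed the filter on low counts that left 18563 genes for testing. All samples were of HT-1080, an established line of human fibrosarcoma cells. Cycling HT-1080 cells received the vehicle DMSO and are labelled 6 h. In the other groups TRF2, a telomere-binding protein, had been disturbed by 6 days of a dominant negative mutant, which made the cells senescent, and they then received DMSO or 1 uM of the tyrosine kinase inhibitor GNF-7, each at 6 h and at 24 h. There were 5 groups of 3 libraries, all 15 from this 1 line, and none from cycling cells given GNF-7 or from cycling cells at 24 h. The labels call the libraries of a group biological replicates without saying what separated them. The p-values therefore set a difference between groups against the spread of such libraries within groups, estimated over all 15. GCN2, a kinase upstream of ATF4 encoded by EIF2AK4, is named in the title of the study.

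bZIP proteins bind DNA as dimers, held together by their leucine zippers. In the integrated stress response, kinases such as GCN2 phosphorylate the initiation factor eIF2, general translation slows, and ATF4 protein is made because of short upstream reading frames in its mRNA. ATF4 then pairs mostly with C/EBP proteins on composite C/EBP-ATF elements in front of genes for amino acid supply, and it can raise the mRNA of further bZIP factors, among them DDIT3 (CHOP) and ATF3. The libraries measure mRNA and not protein or dimers.

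The composite element is shown first because it is the site on which ATF4 and C/EBP proteins pair. RefSeq promoter windows (GRCh38.p14, 250 bases before to 50 after each annotated start) were at hand for 7 of the 8 genes, 16 windows in all, and CEBPD had none. The 9-letter motif TGATGNAAN was searched on both strands, where N is any base. It was found in a window of CEBPG, of JDP2 and of ATF3, and not in those of ATF4, DDIT3, CEBPB or ATF5. Only these windows were searched, so a gene without a match may hold the element elsewhere. The matches are in capitals, each written 5′ to 3′ on the strand that carries the motif, with 10 bases on either side. ASNS and CHAC1 are shown as 2 well known ATF4 targets, and AARS1 and GARS1 because they are 2 of the 3 genes whose levels were nearest to ATF4 below. The nearest, ARHGEF2, had a window without a match.
CEBPG: gcgcggcgtcTGATGCAACctgccggcaa
JDP2: tagccggggcTGATGCAACccgtcccgcc
ATF3: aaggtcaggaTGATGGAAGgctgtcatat
ASNS: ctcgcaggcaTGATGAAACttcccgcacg
CHAC1: ctggcaggagTGATGCAACggcaggggag
AARS1: ctaacttggcTGATGCAACtgcgagaaaa
GARS1: gctcggagcaTGATGAAATcgccgcgtaa
CEBPG and JDP2 carried the same 9 letters, TGATGCAAC, as did CHAC1 and AARS1. The CEBPG element (chr19:33374061-33374089, plus strand) lay 42 bases before a RefSeq start and within an intron of the gene in GENCODE release 29. The JDP2 element (chr14:75427996-75428024, plus strand) lay 16 bases before a RefSeq start, its match also in an intron. The ATF3 element (chr1:212565206-212565234, plus strand) lay 191 bases before the first start, outside any annotated gene at the match. The others were at chr7:97872458-97872486 on the minus strand for ASNS, chr15:40953251-40953279 on the minus strand for CHAC1, chr16:70289676-70289704 on the plus strand for AARS1 and chr7:30594834-30594862 on the minus strand for GARS1.

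The CEBPG and JDP2 elements are printed again in their wider intronic surroundings up to the RefSeq start, on the plus strand. These genes had the most similar pair of profiles among the members. The genes next nearest to both, TUBE1 and ARHGEF2, had windows without a match. Of ATF3 and CEBPB, the second closest pair, only ATF3 had one, and their neighbours ERN1, KLF9 and SESN2 had none. A part of the element in the profiles was not tested. The printed stretches are chr19:33373896-33374112 and chr14:75427850-75428021.
CEBPG: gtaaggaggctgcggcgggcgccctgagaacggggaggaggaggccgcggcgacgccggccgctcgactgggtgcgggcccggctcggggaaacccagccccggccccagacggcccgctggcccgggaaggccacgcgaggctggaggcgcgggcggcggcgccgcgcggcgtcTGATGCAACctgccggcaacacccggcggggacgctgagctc
JDP2: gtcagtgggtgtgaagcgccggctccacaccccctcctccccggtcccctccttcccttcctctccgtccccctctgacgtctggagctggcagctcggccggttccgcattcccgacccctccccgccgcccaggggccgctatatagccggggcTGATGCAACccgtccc
Of all 35116 windows of this length in the table, 3.61% held the composite motif. Among tested genes with a window, 3.03% (367 of 12111) held it, against 11.4% (47 of 411) of those called at least 2-fold higher with GNF-7 at 6 h and 7.39% (73 of 988) at 24 h. Of 40 genes with a window on the ATF4 and DDIT3 target list, 12 (30%) held it. That list was chosen with earlier results of these data known. The AP-1 motif TGANTCA, present in 7.71% of all windows, was found for DDIT3 and ATF5. It was held by 7.84% of tested genes and by 12.2% and 10.3% of those higher at 6 h and 24 h, so it too was more frequent among them. The cAMP response element TGACGTCA (1.85% of windows), held by 3.68% of tested genes and by 2.92% and 1.52% of those higher, and the C/EBP palindrome TTGCGCAA (0.151%) were in none of the members' windows. No match of a member overlapped a match to another of the 4 motifs. A match describes letters and shows no binding.

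Library totals ranged from 25991007 to 32323393 counts. TERF2, which encodes TRF2, was at 58.2 ± 3.65 CPM (counts scaled to the library's size, SD, n = 3) in cycling cells and at 287 ± 8.17 CPM in senescent DMSO cells at 6 h, and reads of the mutant and the endogenous gene were not told apart. TERF2 was lower with GNF-7 than with DMSO, at 222 ± 8.60 CPM at 6 h (log2 fold change -0.37) and at 132 ± 5.38 against 219.98 ± 7.26 CPM at 24 h (-0.73), both called by edgeR, and its part in the results was not tested. All 12 mesenchymal markers had a mean of at least 1 CPM, S100A4 the lowest at 1.12 CPM. Their summed level was 10979 to 11259 CPM in cycling cells. In senescent cells at 24 h it was 11778 to 13038 CPM with DMSO and 6929 to 7305 CPM with GNF-7. Of 13 markers of other cell types only KRT8, an epithelial keratin at a mean of 218 CPM, and SYP, at 1.39 CPM, reached 1 CPM. Mitochondrial genes took a growing part of the counts, from 4.32 ± 0.637% in cycling cells to 11.7 ± 0.638% and 16.9 ± 1.80% in DMSO and 14.1 ± 1.08% and 23.3 ± 0.767% in GNF-7 (6 h and 24 h). With those genes left out of the scaling, the ATF4 log2 fold changes were -0.82 in senescence and 1.25 and 1.66 with GNF-7, beside -0.84, 1.25 and 1.67 with them. In bulk libraries a change in the mixture of cells and a change in RNA per cell cannot be told apart.

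The 8 genes fell into separate patterns. ATF4, CEBPG and JDP2 were lower in senescent than in cycling cells and rose with GNF-7 to levels above those of cycling cells. DDIT3, ATF3 and CEBPB were already higher in senescent cells and rose again with GNF-7. ATF5 fell in senescence and fell further with GNF-7, and CEBPD fell in senescence and, at 24 h, with GNF-7. The calls behind these statements follow.

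The first comparison asked how senescent and cycling cells differ in DMSO at 6 h. Here 3 of the 8 genes were called higher and 5 lower (edgeR quasi-likelihood test, Benjamini-Hochberg adjusted p under 0.05 over all tested genes). In this comparison 70.0% of all tested genes were called, 35.6% higher and 34.4% lower, so a call alone sets these genes little apart. For GNF-7 against DMSO at 6 h, 6 were called higher and 1 lower, where 39.3% of tested genes were called 17.9% higher and 21.4% lower. All 6 rises were at least 2-fold, a size that 4.16% of tested genes reached. At 24 h the same 6 genes were higher and 2 were lower, where 58.9% of tested genes were called, 29.3% higher and 29.7% lower, and 10.3% higher by at least 2-fold. The senescence and the 6 h GNF-7 comparisons share the senescent DMSO libraries at 6 h, and the 24 h comparison shares libraries with neither. The plot of log2 fold changes sets the 3 comparisons beside each other.

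**Figure D1:**
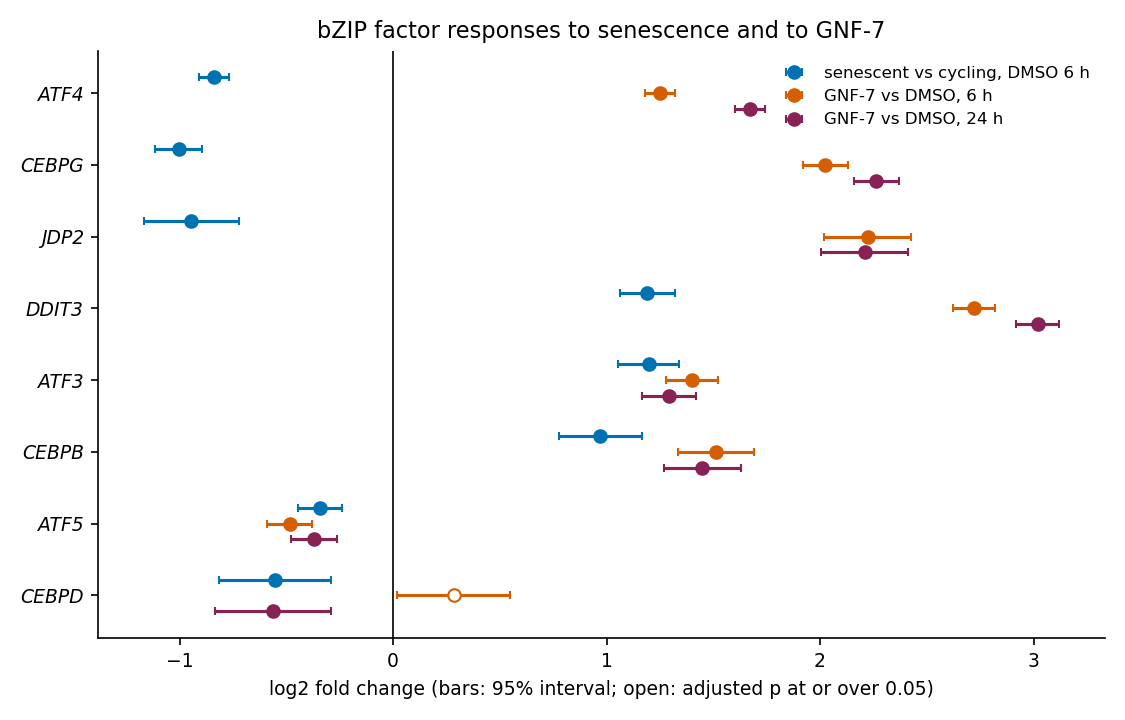
Log2 fold change (x axis) of each gene for senescent against cycling cells in DMSO at 6 h (blue) and for GNF-7 against DMSO in senescent cells at 6 h (orange) and 24 h (purple). Points are edgeR estimates, bars span the 95% interval, and the open point marks an adjusted p of at least 0.05. ATF4, CEBPG and JDP2 lie left of 0 in senescence and right of it with GNF-7, whereas DDIT3, ATF3 and CEBPB lie right of 0 in all 3 comparisons.

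ATF4 (ENSG00000128272, GRCh38 chromosome 22, 39519695 to 39522685, plus strand) encodes the hub of the response. Its level was 327, 327 and 325 CPM in the cycling libraries and 174, 189 and 184 CPM in the senescent DMSO libraries at 6 h. It was 439.8, 429 and 431 CPM with GNF-7 at 6 h. All senescent DMSO libraries lay below, and all GNF-7 libraries above, every cycling library. At 24 h it was 187, 194 and 194 CPM in DMSO and 618, 599 and 617 CPM in GNF-7. The DMSO libraries at 6 h and 24 h overlapped, and no other pair of groups next to each other in level did. The log2 fold change was -0.84 in senescence (SE 0.036, edgeR adjusted p 2.07e-30), a 1.79-fold lower level. With GNF-7 it was 1.25 at 6 h (SE 0.036, edgeR adjusted p 1.65e-38) and 1.67 at 24 h (SE 0.036, edgeR adjusted p 1.65e-45), or 2.38-fold and 3.19-fold. Of all tested genes, 4.12% had a larger change in either direction at 6 h and 5.41% at 24 h. Its processed copies ATF4P1 to ATF4P4 held at most 7 counts in any library, or 0.0492% of the ATF4 count.

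CEBPG (ENSG00000153879, chromosome 19, 33373330 to 33382686, plus strand) encodes a short C/EBP protein that pairs with ATF4. Its level was 45.05, 44.79 and 45.25 CPM in cycling cells, 21.95, 21.44 and 24.00 CPM in senescent DMSO cells at 6 h and 93.9, 88.9 and 91.4 CPM with GNF-7. At 24 h it was 20.93, 21.97 and 22.99 CPM in DMSO and 106, 103 and 106 CPM in GNF-7. As for ATF4, the cycling libraries stood between the senescent DMSO and the GNF-7 libraries with no overlap. In senescence the log2 fold change was -1.004 (SE 0.055, edgeR adjusted p 9.98e-25). It was 2.03 with GNF-7 at 6 h (SE 0.053) and 2.26 at 24 h (SE 0.053, edgeR adjusted p 2.73e-43), or 4.07-fold and 4.799-fold.

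JDP2 (ENSG00000140044, chromosome 14, 75427716 to 75474111, plus strand) encodes a Jun dimerization protein that represses AP-1 and related sites. It had the lowest levels per length in both DMSO senescent groups and in cycling cells, at 9.21, 9.47 and 8.78 CPM in cycling and 5.36, 4.58 and 4.30 CPM in senescent DMSO cells at 6 h. With GNF-7 at 6 h it was 22.9, 20.9 and 22.7 CPM. At 24 h it was 4.43, 4.90 and 6.08 CPM in DMSO and 23.1, 24.6 and 23.2 CPM in GNF-7. Every GNF-7 library was above every cycling library and every cycling library above every senescent DMSO library. Log2 fold changes were -0.94 in senescence (SE 0.113, edgeR adjusted p 4.47e-11), 2.22 with GNF-7 at 6 h (SE 0.104, edgeR adjusted p 2.56e-27) and 2.21 at 24 h (SE 0.103, edgeR adjusted p 6.99e-28). It shares 26 exonic bases with JDP2-AS1 on the other strand, whose highest group mean was 1.34 CPM. Whether counting used strand is not given in the sources used here.

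DDIT3 (ENSG00000175197, chromosome 12, 57516588 to 57521737, minus strand) encodes CHOP, a partner of C/EBP proteins known for its part in stress-induced cell death. It was at 11.4, 10.0 and 9.50 CPM in cycling cells and 23.2, 23.8 and 23.2 CPM in senescent DMSO cells at 6 h. With GNF-7 it was at 152, 157 and 154 CPM at 6 h and 192, 188 and 191 CPM at 24 h, against 25.1, 21.7 and 23.5 CPM in DMSO at 24 h. The groups were apart except for the DMSO groups of senescent cells. On the log2 scale DDIT3 changed by 1.19 in senescence (SE 0.066, edgeR adjusted p 1.31e-24), 2.72 with GNF-7 at 6 h (SE 0.051, edgeR adjusted p 1.85e-48) and 3.02 at 24 h (SE 0.051, edgeR adjusted p 4.49e-51). These rises of 6.59-fold and 8.11-fold were the largest among the 8 genes, and 0.35% of tested genes at 6 h and 0.83% at 24 h changed more. DDIT3 shares 355 of its 1307 exonic bases with MARS1 and 58 with MBD6 on the other strand, and 105 with ENSG00000285133 on its own strand, which had 0 counts in every library. MARS1 had log2 fold changes of -0.70, 0.66 and 0.93 in the same comparisons. In senescence it moved the other way, and with GNF-7 the same way as DDIT3. MBD6 rose in each, by 0.27, 0.40 and 0.34. The level of DDIT3 is uncertain by these overlaps.

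ATF3 (ENSG00000162772, chromosome 1, 212565334 to 212620777, plus strand), an early stress factor that mostly represses transcription, was at 11.8, 10.8 and 12.6 CPM in cycling and 24.3, 27.9 and 28.3 CPM in senescent DMSO cells at 6 h. With GNF-7 it was at 67.3, 72.2 and 73.4 CPM at 6 h. At 24 h it was at 22.4, 20.1 and 21.1 CPM in DMSO and 49.5, 53.4 and 53.0 CPM in GNF-7. No group overlapped the next, and unlike ATF4 and DDIT3 it was highest at 6 h. ATF3 had log2 fold changes of 1.20 in senescence (SE 0.073, edgeR adjusted p 1.47e-22), 1.40 with GNF-7 at 6 h (SE 0.062, edgeR adjusted p 1.22e-28) and 1.29 at 24 h (SE 0.064, edgeR adjusted p 1.66e-26).

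CEBPB (ENSG00000172216, chromosome 20, 50190734 to 50192689, plus strand) encodes a C/EBP activator known for its role in the secretory programme of senescent cells. It was at 55.3, 53.0 and 46.4 CPM in cycling and 106, 101 and 95.1 CPM in senescent DMSO cells at 6 h, and at 272, 274 and 318 CPM with GNF-7. At 24 h it was at 85.9, 73.6 and 89.0 CPM in DMSO and 239.8, 209.7 and 229 CPM in GNF-7. The groups did not overlap, and replicate 3 of GNF-7 at 6 h was the highest library. CEBPB had log2 fold changes of 0.97 in senescence (SE 0.099, edgeR adjusted p 2.53e-06), 1.51 with GNF-7 at 6 h (SE 0.091, edgeR adjusted p 6.04e-08) and 1.45 at 24 h (SE 0.093, edgeR adjusted p 4.27e-08). CEBPB shares 231 exonic bases with CEBPB-AS1 on the other strand, whose group means were 0.854 to 3.78 CPM.

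CEBPD (ENSG00000221869, minus strand), a C/EBP factor of the acute phase response, had few counts, 135 to 279 per library. It was at 9.41, 9.16 and 7.93 CPM in cycling and 6.26, 6.32 and 5.45 CPM in senescent DMSO cells at 6 h, and at 6.45, 6.62 and 8.88 CPM with GNF-7. At 24 h it was at 8.45, 6.59 and 7.12 CPM in DMSO and 4.88, 4.38 and 5.78 CPM in GNF-7. The cycling, GNF-7 6 h and DMSO 24 h libraries overlapped, and those of GNF-7 at 24 h were below all of these. The log2 fold change was -0.55 in senescence (SE 0.134, edgeR adjusted p 2.36e-04) and -0.56 with GNF-7 at 24 h (SE 0.139, edgeR adjusted p 3.76e-04). At 6 h it was 0.28 (95% interval 0.02 to 0.55, edgeR adjusted p 0.0892), and it hung on replicate 3 of GNF-7, without which it was 0.12. It passed the threshold without replicate 1 (0.37, adjusted p 0.0444) or replicate 2 (0.36, adjusted p 0.0492) of GNF-7 at 6 h and when genes needed a mean of 5 CPM (0.34, adjusted p 0.0333), all by edgeR.

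ATF5 (ENSG00000169136, chromosome 19, 49928702 to 49933935, plus strand), a factor close to ATF4 in sequence and known in mitochondrial stress, was at 69.3, 65.8 and 65.6 CPM in cycling and 49.6, 52.6 and 56.2 CPM in senescent DMSO cells at 6 h. With GNF-7 it was at 38.3, 37.7 and 37.1 CPM at 6 h, and at 24 h at 46.3, 49.5 and 50.4 CPM in DMSO and 39.4, 37.8 and 35.9 CPM in GNF-7. GNF-7 libraries were below all others and overlapped each other between the times. The log2 fold change was -0.34 in senescence (SE 0.053, edgeR adjusted p 6.13e-08), -0.49 with GNF-7 at 6 h (SE 0.055, edgeR adjusted p 4.02e-11) and -0.37 at 24 h (SE 0.055, edgeR adjusted p 4.28e-08). In senescence it was -0.19 when genes needed a mean of 5 CPM, which moves the scale of all genes by 0.15, and it stayed past the threshold. ATF5 shares 626 of its 2954 exonic bases with NUP62 on the other strand, which had log2 fold changes of -1.06, -0.21 and -0.27.

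**Figure D2:**
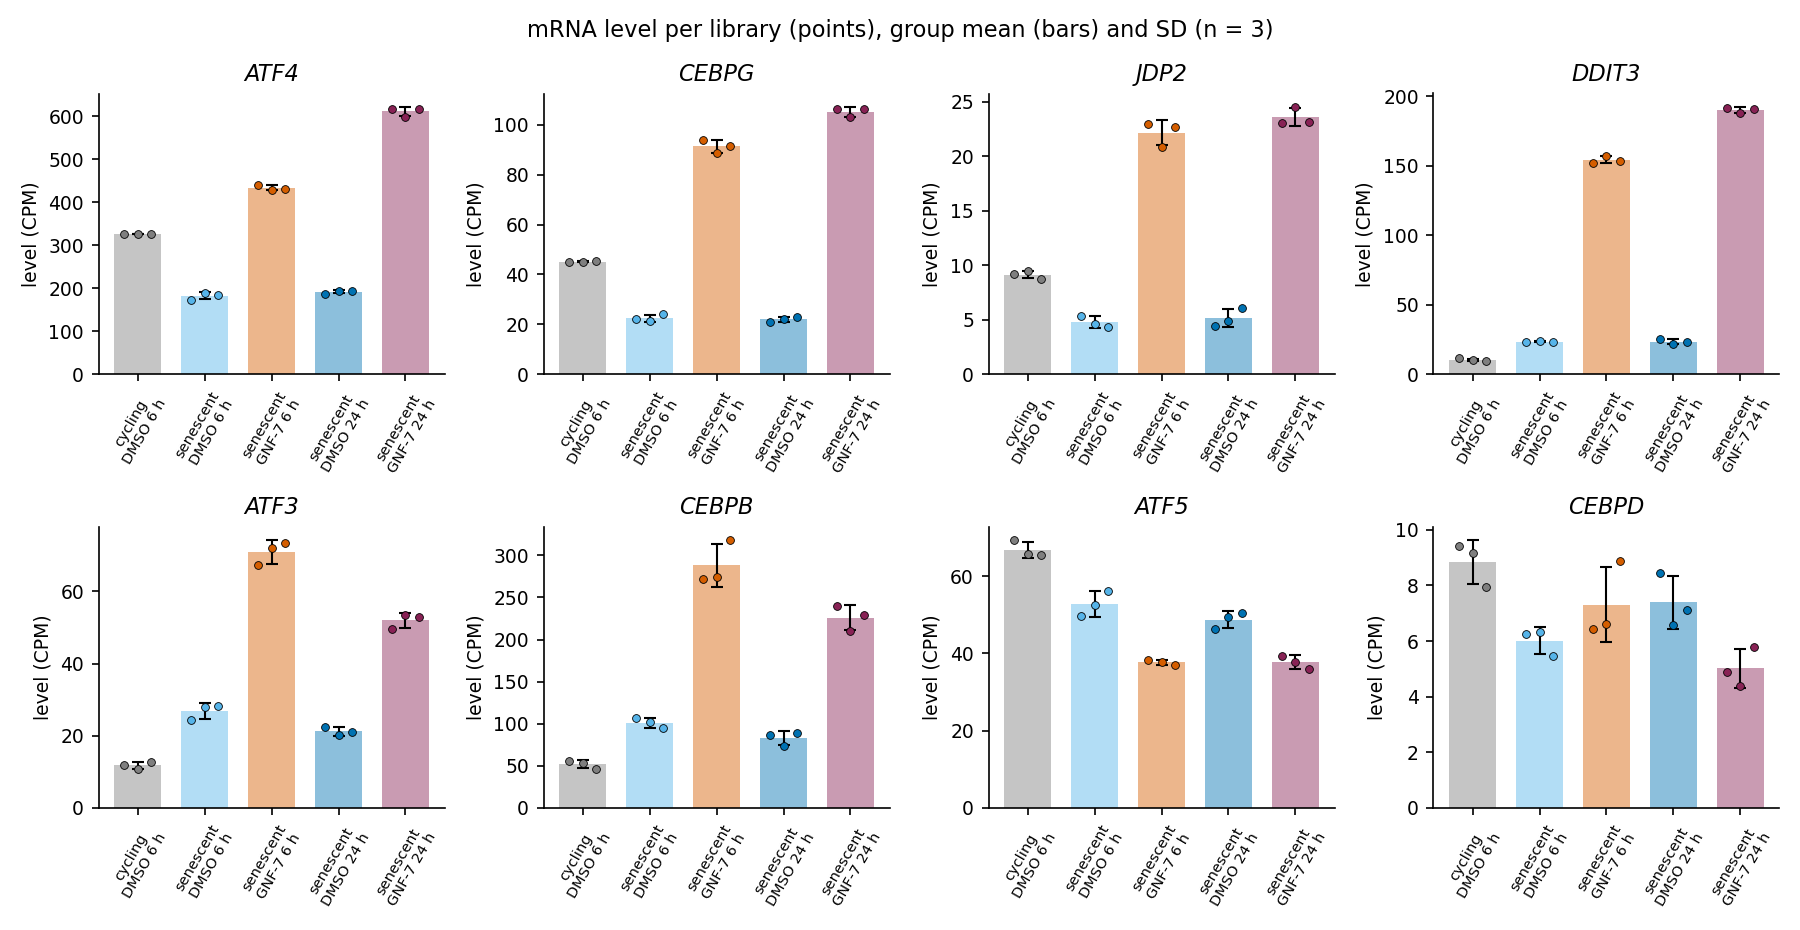
Level in CPM (y axis, from 0, a scale per gene) in the 5 groups. Points are libraries, bars are means and error bars are SD (n = 3). ATF4, CEBPG and JDP2 stand between the senescent DMSO and GNF-7 groups in cycling cells, DDIT3, ATF3 and CEBPB are lowest in cycling cells, and ATF5 is lowest in both GNF-7 groups.

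Whether the GNF-7 effect differed between 24 h and 6 h was tested as an interaction, in which 4 of the 8 genes were called, 3 higher and 1 lower, and 30.8% of all tested genes, 12.8% higher and 18.0% lower. The effect was larger at 24 h for ATF4, by 0.42 on the log2 scale (SE 0.050, edgeR adjusted p 2.26e-10), and for DDIT3, by 0.30 (SE 0.072, edgeR adjusted p 7.42e-04). For CEBPG it was larger by 0.24 (SE 0.076, edgeR adjusted p 0.0117). That call was lost without senescent DMSO replicate 3 at 6 h (0.19, edgeR adjusted p 0.0773) or without senescent DMSO replicate 1 at 24 h (0.20, edgeR adjusted p 0.0602). CEBPD had an interaction of -0.85 (SE 0.194, edgeR adjusted p 3.66e-04). JDP2 had -0.01 (95% interval -0.31 to 0.28), CEBPB -0.06 (-0.32 to 0.19), ATF3 -0.11 (-0.28 to 0.07) and ATF5 0.12 (-0.04 to 0.27), and these were not called.

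Within GNF-7 cells, 24 h against 6 h, 6 of the 8 genes were called, 3 higher and 3 lower, where 47.8% of tested genes were, 23.1% higher and 24.7% lower. ATF4 was higher at 24 h by 0.50, DDIT3 by 0.30 and CEBPG by 0.20, and ATF3 fell by 0.45, CEBPB by 0.35 and CEBPD by 0.55 on the log2 scale. So ATF4, DDIT3 and CEBPG were highest at 24 h and ATF3 and CEBPB at 6 h. In DMSO cells over the same time 1 of the 8 was called, where 18.5% of tested genes were, 9.26% higher and 9.29% lower. That gene was ATF3, which fell by 0.34 (SE 0.068, edgeR adjusted p 1.16e-04). CEBPB was at -0.28 (edgeR adjusted p 0.0617) and ATF4 at 0.07 (95% interval 0.00 to 0.14, edgeR adjusted p 0.164).

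GNF-7 cells at 6 h were also set against cycling cells, a comparison in which treatment and senescence differ together. Here 7 of the 8 genes were called, 6 higher and 1 lower, where 75.7% of all tested genes were called, 39.6% higher and 36.1% lower. DDIT3 was 15.05-fold higher (log2 fold change 3.91, SE 0.058), ATF3 6.05-fold, CEBPB 5.60-fold, JDP2 2.42-fold, CEBPG 2.03-fold and ATF4 1.33-fold higher. Of these 6 genes, the 3 with the smallest fold above cycling cells were those that were lower in senescent DMSO cells. On the log2 scale this comparison is the sum of the senescence and the 6 h GNF-7 changes. A fall in senescence therefore lowers it by construction. ATF5 was 1.77-fold lower, and CEBPD was at -0.27 (edgeR adjusted p 0.0595).

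To compare genes with each other, CPM were divided by exon length in kilobases. ATF4 was the most abundant of the 8 in every group, from 72.5 ± 3.14 CPM per kb in senescent DMSO cells at 6 h to 243 ± 4.26 with GNF-7 at 24 h (SD, n = 3). CEBPB had rank 2 in 4 groups, at 26.4 ± 2.38 CPM per kb in cycling cells and 147 ± 13.2 with GNF-7 at 6 h. DDIT3 went up in this order, from rank 5 in cycling cells at 7.88 ± 0.744 CPM per kb to rank 2 with GNF-7 at 24 h at 145 ± 1.58, above CEBPB at 116 ± 7.79, and ATF5 went down from rank 3 in cycling cells to rank 6 in both GNF-7 groups. Some neighbours in the order overlapped, namely DDIT3 and ATF5 in both senescent DMSO groups, ATF3 and CEBPG in DMSO at 24 h, JDP2 and CEBPD with GNF-7 at 6 h, and ATF3 and ATF5 with GNF-7 at 24 h. JDP2 was last in the DMSO groups, at 0.761 ± 0.0884 CPM per kb in senescent cells at 6 h, and CEBPD was last with GNF-7 at 24 h, at 2.30 ± 0.324.

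**Figure D3:**
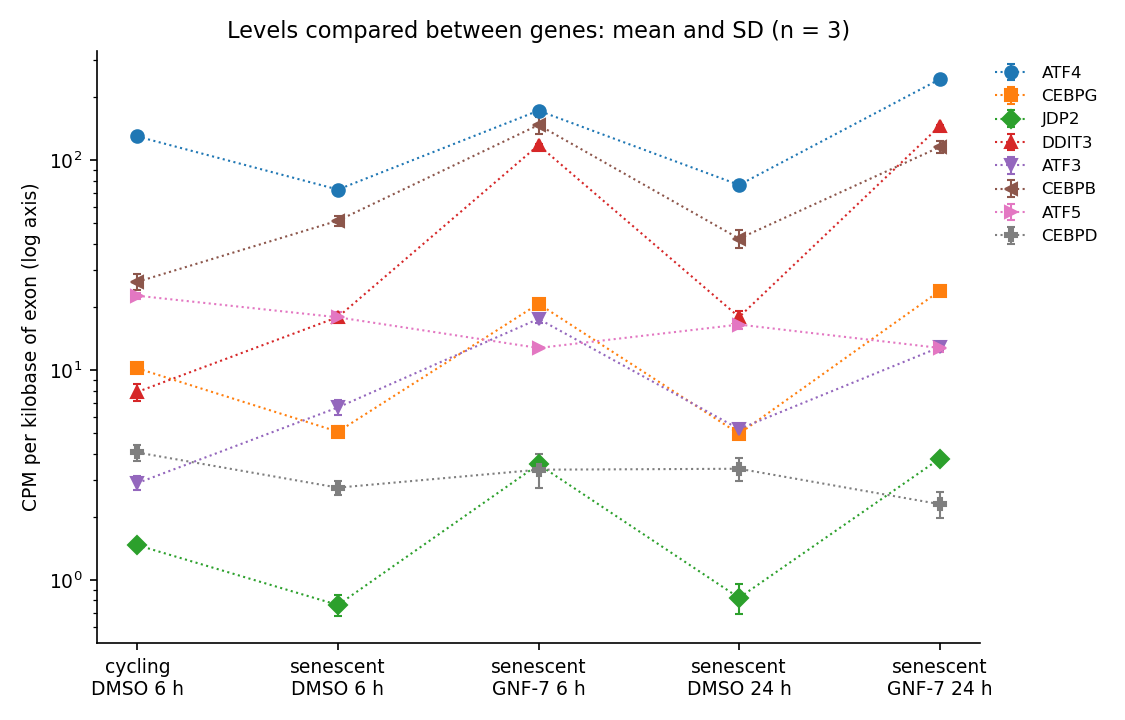
Mean level in CPM per kilobase of exon (y axis, log scale) of the 8 genes in the 5 groups (x axis), with SD as error bars (n = 3). Dotted lines only join the points of a gene. ATF4 is on top in every group, and DDIT3 goes from 7.88 in cycling cells to 145 with GNF-7 at 24 h.

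Likeness between genes was measured over the 15 libraries as the root mean square difference of log2(CPM + 1), each gene centred on its own mean, so that 0 means the same shape. The closest pair among the 8 was CEBPG and JDP2, at 0.132 log2 units, followed by ATF3 and CEBPB at 0.153 and CEBPD and ATF5 at 0.290. ATF4 was at 0.309 from CEBPG and 0.322 from JDP2. The distance is not scaled to a gene's range. The root mean square of the centred profile itself was 0.277 for CEBPD and 0.311 for ATF5, about as large as their distance. It was 0.671 for ATF4 and 0.940 for CEBPG, well above theirs. The small distance of CEBPD and ATF5 thus shows no shared shape. The farthest pair was DDIT3 and ATF5, at 1.92. Among 11069 other genes with a mean of at least 5 CPM, CEBPG was the nearest to JDP2 and JDP2 the nearest to CEBPG, and ATF3 and CEBPB were likewise each other's nearest. The median distance of all these genes was 1.02 from CEBPG and 0.989 from ATF3.

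The genes nearest to ATF4 were ARHGEF2, a guanine nucleotide exchange factor, at 0.108, and the transfer RNA synthetase genes GARS1 at 0.116 and AARS1 at 0.151. GARS1 was at 327 CPM in cycling, 190 and 178 CPM in senescent DMSO and 504 and 614 CPM in GNF-7 cells (group means at 6 h and 24 h), close to the ATF4 values. DDIT3 had no gene as close, but its distances run larger, with a median of 1.70 over all compared genes against 0.760 for ATF4. Its nearest was NUPR1, a stress-induced cofactor, at 0.393. The antisense genes DLGAP1-AS2 at 0.413 and KLHL30-AS1 at 0.451 followed, and their counts are uncertain without strand. KLHL30-AS1 had group means of 0.150 to 1.10 CPM in DMSO and 13.9 and 32.9 CPM in GNF-7. It reached the required mean of 5 CPM only through the GNF-7 groups, and its distance depends on the 1 added to CPM. After each other, ATF3 and CEBPB were both near ERN1, the endoplasmic reticulum stress sensor IRE1, at 0.189 and 0.178. KLF9 was at 0.178 from ATF3 and SESN2 at 0.199 from CEBPB. After each other, CEBPG and JDP2 were both near TUBE1, at 0.233 and 0.196, and ARHGEF2, at 0.231 and 0.234. For ATF5 they were COA4, HDAC7 and BTBD3 at 0.0738 to 0.0798, and for CEBPD ASL, AVEN and TBC1D2 at 0.147 to 0.151. The profiles of ATF5 and CEBPD vary little, so their distances are small to most genes, with medians of 0.334 and 0.338.

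**Figure D4:**
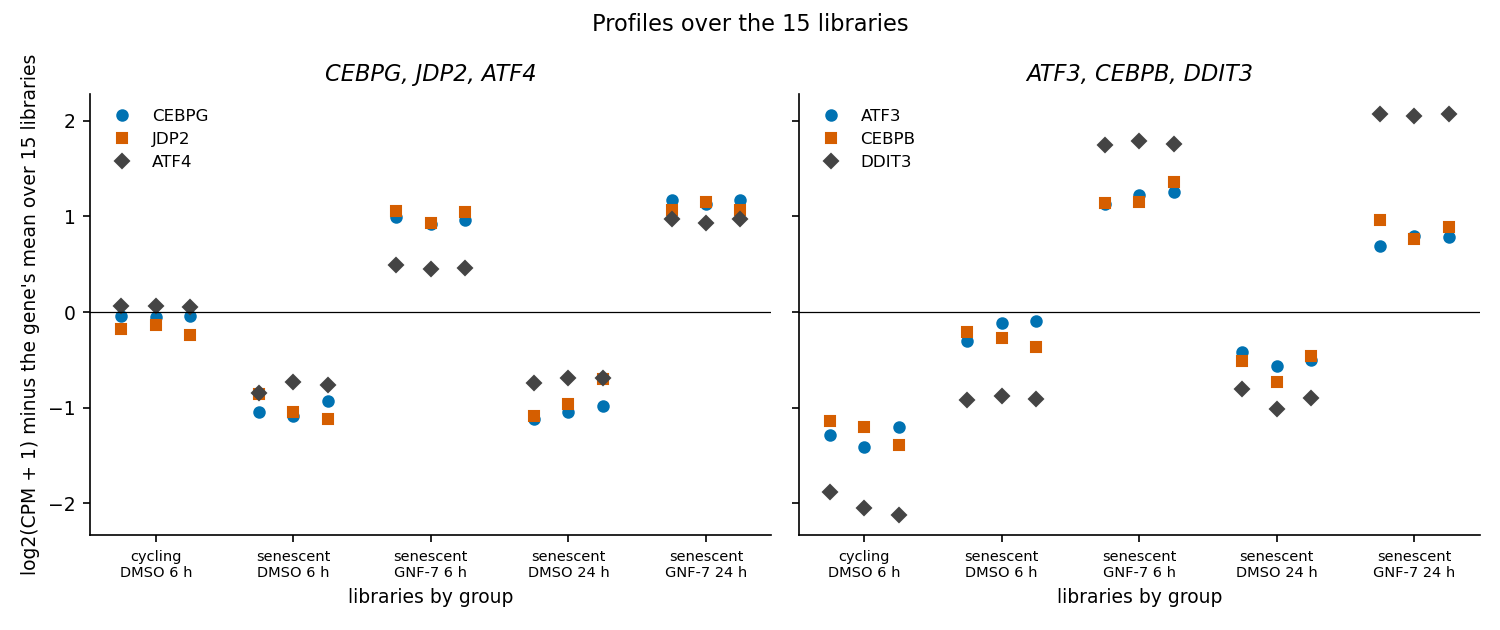
Centred log2(CPM + 1) (y axis) of 3 genes in each panel, 1 point per library, grouped by condition (x axis). CEBPG and JDP2 (left) nearly coincide and ATF4 follows with a smaller range, and ATF3 and CEBPB (right) nearly coincide and peak with GNF-7 at 6 h, while DDIT3 has a wider range and peaks at 24 h.

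The target list held 50 genes known to be driven by ATF4 or DDIT3, such as those for amino acid synthesis and transport, and 48 were tested. Like the further lists below, it was chosen with earlier results of these data known. Its shares are therefore not an independent test. In senescence 13 (27.1%) were called higher and 34 (70.8%) lower, against 35.6% and 34.4% of all tested genes. The median log2 fold change of the 48 was -0.56, against 0.06 over all tested genes. The largest falls were in genes of serine and folate metabolism, PSAT1 at -1.98 (SE 0.042), MTHFD2 at -1.86 (SE 0.042) and PHGDH at -1.78 (SE 0.045), while GDF15, a secreted stress cytokine, rose by 2.39 (SE 0.037). With GNF-7 at 6 h 44 (91.7%) were called higher and 2 (4.17%) lower, against 17.9% and 21.4% of all tested genes. The median of the 48 was 1.17, against 0.01 over all tested genes. The largest changes were in ADM2, an adrenomedullin-family peptide, at 3.47 (SE 0.117), CHAC1, a glutathione-degrading enzyme, at 3.41 (SE 0.078), ASNS, asparagine synthetase, at 3.00 (SE 0.167), and TRIB3, a pseudokinase that binds ATF4, at 2.81 (SE 0.045). At 24 h 44 (91.7%) were higher and 4 (8.33%) lower, against 29.3% and 29.7% of all tested genes. The median of the 48 was 1.37, against 0.04, and CHAC1 at 4.05 (SE 0.082) and NUPR1 at 3.79 (SE 0.085) led. The ATF4 target PSAT1 went from 59.2 to 317 CPM at 6 h and from 47.6 to 413 CPM at 24 h, and in cycling cells it was at 233 CPM. ASNS was low, at 1.24 CPM in senescent DMSO and 9.92 CPM in GNF-7 cells at 6 h, and shares 1985 of its 4455 exonic bases with another transcript on its strand (1 to 29 counts), so its level is uncertain.

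The log2 fold change with GNF-7 differed between the times for 31 of these 48 genes (30.8% of all tested genes), being higher at 24 h for 23 (12.8%) and lower for 8 (18.0%). The 8 include ERO1A, SLC38A2 and TNFRSF10B, whose values at 24 h were -0.56, -0.27 and -0.24, so that a lower value there is a larger fall; these 3 were picked out after their values were seen. The difference, 24 h minus 6 h, was 1.15 for PHGDH (SE 0.063), 1.13 for NUPR1 (SE 0.134), 0.84 for WARS1 (SE 0.051) and -0.90 for BCL2L11, a cell death gene (SE 0.107). Against cycling cells, 36 of the 48 (75%) were higher and 7 (14.6%) lower with GNF-7 at 6 h. Of all tested genes 39.6% were higher and 36.1% lower. The median of the 48 was 0.89, against 0.10. In DMSO over time 6 (12.5%) were higher and 19 (39.6%) lower (median -0.09, against 0.01), where 9.26% and 9.29% of all tested genes were. The plot of senescence against GNF-7 at 24 h places each target gene beside the 8 bZIP genes.

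**Figure D5:**
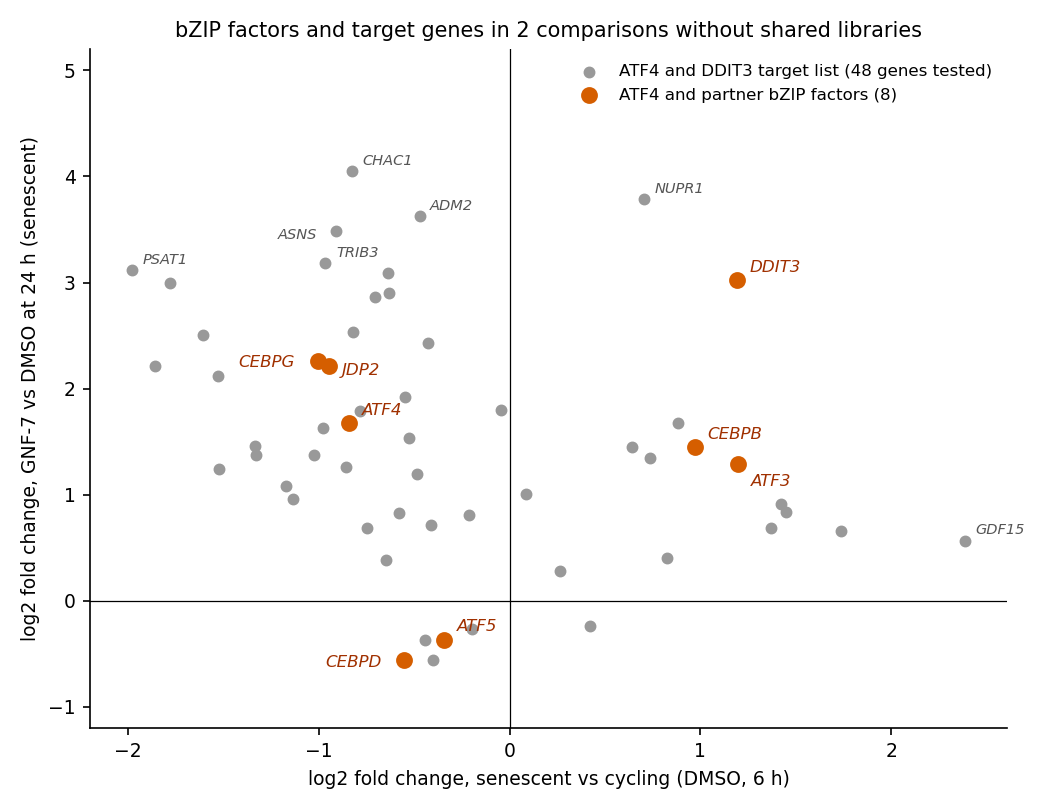
Log2 fold change for senescent against cycling cells in DMSO at 6 h (x axis) and for GNF-7 against DMSO at 24 h in senescent cells (y axis), which share no library. Grey points are the 48 target genes tested and orange points the 8 bZIP genes, and the lines mark 0. ATF4, CEBPG and JDP2 lie upper left, DDIT3, CEBPB and ATF3 upper right, and ATF5 and CEBPD lower left.

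The list of genes upstream of ATF4 (11 genes, all tested) held eIF2 kinases, the GCN2 regulators GCN1 and IMPACT, EIF2S1, EIF2B5 and phosphatase genes. These were mostly lower in senescence, and with GNF-7 more of them were called lower than higher at both times. As the list pools kinases with phosphatase genes, its medians give no direction of signalling. EIF2AK4, which encodes GCN2, was at 146 ± 5.27 CPM (SD, n = 3) in cycling and 122 ± 1.81 CPM in senescent DMSO cells (log2 fold change -0.27). With GNF-7 at 6 h it was at -0.03 (95% interval -0.11 to 0.06, edgeR adjusted p 0.657) and at 24 h it fell by 0.15 (SE 0.043). In senescence 2 of the 11 rose and 8 fell, where 70.0% of all tested genes were called and 34.4% were lower, with EIF2AK2 (the kinase PKR) at -0.83 (SE 0.051) and EIF2S1 (eIF2 alpha) at -0.78 (SE 0.043). With GNF-7 2 rose and 4 fell at 6 h, where 39.3% of all tested genes were called, and 1 rose and 6 fell at 24 h, where 58.9% were. The rise at both times was in PPP1R15A (GADD34), the eIF2 phosphatase subunit, which is also an ATF4 target and on both lists, at 0.78 (SE 0.040) and 1.44 (SE 0.040). EIF2AK3 (PERK) fell by 0.32 (SE 0.091) and 0.83 (SE 0.101). Medians were -0.34, -0.09 and -0.15 in the 3 comparisons, against 0.06, 0.01 and 0.04 over all tested genes.

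Of 45 further bZIP genes 41 were tested. In senescence 16 were higher and 17 lower (median 0.01), with GNF-7 at 6 h 16 and 11 (median 0.07), and at 24 h 15 and 14 (median -0.02). Called genes made up 80.5%, 65.9% and 70.7% of these 41, against 70.0%, 39.3% and 58.9% of all tested genes, whose medians were 0.06, 0.01 and 0.04. Calls in both directions were thus close in number at 24 h and in senescence. At 6 h NFIL3, a repressor of the clock and immune genes, rose by 1.32 (SE 0.064) and XBP1, of the unfolded protein response, by 1.15 (SE 0.046), while the AP-1 genes FOS and FOSB fell by 2.17 (SE 0.572) and 1.07 (SE 0.341). At 24 h CEBPA rose by 1.44 (SE 0.183) and BACH2 by 1.62 (SE 0.253), and FOS and FOSB fell by 3.21 (SE 0.591) and 1.33 (SE 0.338). FOS varied widely between libraries, as its SE shows. In senescence CREBRF rose by 1.51 (SE 0.072) and BATF3 fell by 1.64 (SE 0.167). List calls are those of edgeR over all tested genes.

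A list of genes known to be driven by C/EBP factors, with secreted factors and the enzyme gene PTGS2 (22 genes, of which 16 were tested), did not move as one. In senescence 10 were higher and 4 lower (median 1.20, against 0.06 over all tested genes), with C3, a complement factor, at 4.50 (SE 0.091), IL6 at 2.85 (SE 0.231) and PTGS2 at 1.81 (SE 0.141), and CXCL8 at -1.72 (SE 0.097). With GNF-7 at 6 h, where CEBPB rose 2.86-fold, 5 were higher and 3 lower (median 0.14), and at 24 h 5 were higher and 6 lower (median -0.16). Called genes made up 87.5% of the 16 in senescence, 50% at 6 h and 68.8% at 24 h, against 70.0%, 39.3% and 58.9% of all tested genes, so the shares with GNF-7 were near the background. The chemokine gene CCL2 fell by 2.92 (SE 0.096) and 5.75 (SE 0.126), from 32.7 to 4.31 CPM at 6 h and from 43.0 to 0.793 CPM at 24 h. IL6 rose by 0.87 (SE 0.161) and 1.63 (SE 0.198), from 3.85 to 7.03 CPM and from 1.24 to 3.86 CPM. CXCL3 rose by 1.61 (SE 0.204) and 1.24 (SE 0.201), and IL1B by 1.12 (SE 0.040) at 24 h.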

How the data were processed

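Libraries were made from total RNA with a stranded mRNA kit, per the labels' protocols. The authors deposited 1 table of raw counts per Ensembl gene, without normalization. Per the submitters' processing notes, bcl2fastq 2.20.0.422, STAR 2.7.9a, featureCounts 1.5.1 and the build GRCh38 were used, while the annotation release, the strand setting and the treatment of reads on overlapping genes are not given in the sources used here. Of 60673 rows, 3 (a broken entry) were left out, and 99.55% of identifiers were in the name table.

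Counts were tested with edgeR 4.0.16 (R 4.3.3, robust quasi-likelihood fit over all 15 libraries, filterByExpr, TMM scaling, no replicate block), with Benjamini-Hochberg adjustment over 18563 genes. SE is the absolute log2 fold change divided by the square root of F, and CPM use TMM-scaled library sizes. Lengths and positions are from GENCODE 29 and promoter windows from RefSeq. Library totals were 25991007 to 32323393 counts. At any depth, a count of 0 allows an expected count of up to 3 at the 95% level, for counting error only. Libraries of a group differed by more than sampling noise. The labels do not say whether replicate numbers pair libraries, and no pairing was used.

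Named genes were the 8, TERF2 and EIF2AK4, up to 4 called genes per list and comparison with the largest change and a mean of at least 1 CPM, and the 3 nearest profiles of each (mean of at least 5 CPM), and 1 gene so named is not reported here. Members and lists were chosen with earlier results of these data known. The alternatives were RLE size factors, total counts only, scaling without mitochondrial genes, no filter, a minimum mean of 5 CPM, DESeq2 1.42.0, limma voom 3.58.1, fits of the compared groups alone, a replicate block, each library left out and, for nearest profiles, a pseudocount of 0.1. The code was tested on simulated counts.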

Additional observations from a re-analysis of the deposited data

Results flagged for a closer look

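By the edgeR interaction test, 4 of the 8 genes responded to GNF-7 to a different extent at 24 h than at 6 h. The log2 fold change was larger at 24 h by 0.42 for ATF4 (1.67 against 1.25), by 0.30 for DDIT3 (3.02 against 2.72) and by 0.24 for CEBPG (2.26 against 2.03). The CEBPG difference is the one that leaving out 1 library could end. For CEBPD the difference was -0.85, with 0.28 at 6 h and -0.56 at 24 h, and it kept its side of the threshold in all 21 alternatives, from -0.96 to -0.69. The mitochondrial share of counts differed between the same groups, being 14.1% and 23.3% with GNF-7 and 11.7% and 16.9% with DMSO. With mitochondrial genes left out of the scaling the differences were 0.41, 0.28, 0.22 and -0.87.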

How the results depend on the processing

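For the 8 genes, 840 of 888 values under alternatives kept their direction and side of the threshold. In senescence and with GNF-7 at 6 h and 24 h it was 357 of 360, the other 3 being CEBPD at 6 h, which passed the threshold as given above. Scaling by total counts moved the median of all genes by 0.13 in senescence and by -0.11 in DMSO over time, where the share of calls that were higher went from 49.9% to 12.5%, and in GNF-7 over time from 48.3% to 34.3%. Requiring a mean of 5 CPM moved it by 0.15 in senescence and 0.10 with GNF-7 at 24 h.

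In DMSO over time the 8 genes had 1 call, and 3 with total counts (CEBPB and ATF5 added) and 2 with scaling without mitochondrial genes, no filter, the 5 CPM filter, DESeq2 and only the groups compared (CEBPB added). The further bZIP genes had 14 calls and 23 with total counts, and the upstream genes 5, or 2 to 5 with 1 library left out (2 without senescent DMSO replicate 2 at 6 h, 3 without replicate 3 at 6 h or replicate 2 or 3 at 24 h). With the 5 CPM filter, which tests fewer genes, calls on the list of C/EBP-driven genes went from 11 to 6 at 24 h and 8 to 5 for the interaction. They went from 11 to 7 for GNF-7 over time and 15 to 9 against cycling cells. CEBPD against cycling cells passed with limma voom (-0.27, adjusted p 0.0462) and without cycling replicate 3 (-0.35) or GNF-7 6 h replicate 3 (-0.44).

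All 33 changes of sign were in values not called. In GNF-7 over time, ATF5 (0.00) was -0.015 with RLE, -0.095 with total counts, -0.025 without mitochondrial genes, -0.015 without a filter, -0.017 with DESeq2, -0.00065 with voom and -0.0054 with only the groups compared, and -0.033 to 0.035 with 1 library left out. JDP2 (0.09) was -0.0051 with total counts. In DMSO over time, total counts gave -0.038 for ATF4, -0.11 for DDIT3 and -0.0067 for JDP2. DDIT3 (0.00) was also -0.0058 without mitochondrial genes, -0.010 without a filter and -0.0019 with only the groups compared, and -0.052 to 0.057 with 1 library left out, CEBPG -0.066 to 0.016 and JDP2 -0.027 to 0.20. The JDP2 interaction was 0.0017 with total counts and 0.034 with the 5 CPM filter, and -0.12 to 0.12 with 1 library left out, and that of CEBPB -0.15 to 0.0098. The cause was not tested.

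Correlations between the deviations of 30 same-numbered pairs of libraries were -0.037 to 0.058, 0 of them over 0.1. Those of 60 different-numbered pairs were -0.069 to 0.040. Of 15 libraries, 8 were closest to their own number. The highest value was between replicates 1 of DMSO and GNF-7 at 24 h in senescent cells. Such a check cannot exclude a weak pairing by replicate number. With a replicate block the 8 genes had 8 calls in senescence, 7 and 8 with GNF-7 at 6 h and 24 h, 4 for the interaction, 1 and 6 over time in DMSO and GNF-7 and 7 against cycling cells, and all genes had 13032, 7481, 11031, 5921, 3711, 9018 and 14087. Nearest genes with a pseudocount of 0.1 shared 3 of 3 for 6 genes and 2 of 3 for DDIT3 and JDP2. Counts per library were lowest for JDP2 (from 124) and CEBPD (from 135).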
